A study of Mus musculus with 12 samples.

Results

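The liver-enriched transcription factors are a small set of DNA-binding proteins that together set and keep the gene programme of the hepatocyte. The 8 genes described here, Hnf4a, Foxa1, Foxa2, Foxa3, Cebpa, Cebpb, Onecut1 and Prox1, were chosen by symbol from the 24062 genes listed in the count tables; the rule uses no measured value, although earlier results of these data were known when the list was drawn up. All 8 were in the tables and all 8 passed the filter on low counts, which left 12015 genes. The counts came from liver RNA of 14-week-old males (mixed background 129SvEV-C57BL/6), every one of which carried floxed alleles of Nr5a2, the gene of the nuclear receptor LRH-1. Animals of the knockout groups had in addition received Cre recombinase in an AAV8 vector (genotype Cre in the labels), while the control groups carried the floxed alleles without Cre (genotype F/F) and, by the series text, were infected with AAV8-eGFP. The sources used here do not name the promoter that drove Cre. Both genotypes were sampled on standard diet (SD), with 3 libraries each, and after 6 weeks of the high-fat diet D12492 (HFD), with 4 libraries of controls and 2 of knockouts. Separate mice are not stated for the libraries, and p-values refer to the variation among libraries, which may be technical.

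HNF4A is a nuclear receptor bound at a large share of hepatocyte genes, and its loss in the liver lowers many genes of lipid, bile acid and clotting factor metabolism. The FOXA proteins are forkhead factors that open compact chromatin at liver enhancers in the embryo and act on genes of glucose and bile acid handling in the adult. C/EBPα holds the adult metabolic programme, whereas C/EBPβ is induced by cyclic AMP, glucocorticoids and inflammatory cytokines. Onecut1 encodes HNF6, a cut-homeodomain factor of hepatocyte and bile duct development. Prox1 encodes a homeobox protein that binds HNF4A and LRH-1 and represses their targets.

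Liver RNA was checked before the factors were compared. Every one of the 10 hepatocyte markers was detected in every group, and Alb, the albumin gene, took 7.58% to 13.7% of counts. Total counts were 2371167 to 3404570 in the SD libraries and 7463792 to 10875478 in the HFD libraries, so the diets also differ in depth and cannot be told apart from it. Nr5a2 itself stood at 74.8 to 85.8 CPM (counts scaled to library size) in SD controls, against 94.7 to 100.1 in the libraries labelled SD knockout. It was at 64.3 to 77.0 CPM in HFD controls, against 69.1 and 84.5 in the libraries labelled HFD knockout. The gene total was thus not lower in the libraries labelled knockout, the labels do not name the deleted exons, and Nr5a2 counts do not check them. Nr0b2 and Cyp8b1, known LRH-1 targets, were lower in each library labelled knockout than in any control on the same diet. Nr0b2 was at 10.5 to 15.3 CPM in SD controls with no count in any SD knockout, and at 6.26 to 13.3 CPM in HFD controls against 0 and 0.335 in HFD knockouts. Cyp8b1 was at 17.1 to 47.6 against 0.697 to 4.00 CPM on SD and at 62.4 to 102.1 against 1.79 and 6.81 CPM on HFD.

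Promoter sequences are shown for the factors on which the comparisons turn. Foxa1 and Cebpb were the members that changed with knockout on SD, Onecut1 was the most variable member, and Foxa2 is a known target of the Onecut1 protein. All 8 members had an entry among the RefSeq promoter windows of build GRCm38.p6, 12 windows in all because 3 of the genes have more than 1 start. The windows searched were the 250 bases before each start. They are written 5′ to 3′ on the strand of the gene, with motif matches in capitals, and the Foxa1 window is shown without its last 10 bases, which lie in an annotated exon.
Foxa1 chr12:57546122-57546361 (-): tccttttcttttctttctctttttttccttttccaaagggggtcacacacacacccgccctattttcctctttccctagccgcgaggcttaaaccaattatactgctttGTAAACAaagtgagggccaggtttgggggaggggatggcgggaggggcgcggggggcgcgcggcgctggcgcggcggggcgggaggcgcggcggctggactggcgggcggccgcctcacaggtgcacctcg
Cebpb chr2:167688665-167688914 (+): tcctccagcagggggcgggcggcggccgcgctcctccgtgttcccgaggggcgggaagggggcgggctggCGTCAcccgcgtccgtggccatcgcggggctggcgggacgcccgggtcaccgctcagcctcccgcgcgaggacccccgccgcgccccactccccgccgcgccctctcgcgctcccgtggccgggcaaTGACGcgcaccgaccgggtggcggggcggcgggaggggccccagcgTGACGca
Onecut1 chr9:74861671-74861920 (+): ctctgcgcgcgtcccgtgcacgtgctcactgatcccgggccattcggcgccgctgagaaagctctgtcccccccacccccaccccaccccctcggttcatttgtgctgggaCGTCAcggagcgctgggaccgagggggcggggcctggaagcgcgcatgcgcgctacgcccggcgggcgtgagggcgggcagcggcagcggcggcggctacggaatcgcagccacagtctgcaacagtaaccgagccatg
Foxa2 chr2:148046970-148047219 (-): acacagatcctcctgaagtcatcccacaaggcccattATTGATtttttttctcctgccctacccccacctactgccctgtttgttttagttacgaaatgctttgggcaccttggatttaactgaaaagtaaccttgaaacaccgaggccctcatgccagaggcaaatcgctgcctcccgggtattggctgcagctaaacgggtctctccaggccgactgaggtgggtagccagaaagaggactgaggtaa

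In the Foxa1 window the capitals mark GTAAACA, 141 bases before the start, a match on the opposite strand to TGTTTNC, the core bound by the FOXA proteins themselves. That core was found in 3 of the 12 member windows (Hnf4a, Foxa1 and Prox1) and in 17.8% of 32851 promoter windows. In the Cebpb window the capitals mark 3 matches to TGACG or its reverse complement CGTCA, the core of the cyclic AMP response element, at 180, 53 and 7 bases before the start. The Onecut1 window held 1 such match, 139 bases before its start, and the core was found in 17.8% of all windows. The Foxa2 window shown is 1 of 3 for that gene. Its capitals mark ATTGAT, a core bound by HNF6, 213 bases before that start. The HNF6 core was in 2 of the 12 member windows (1 of Foxa2 and 1 of Hnf4a) and in 6.72% of all windows. The other Foxa2 windows held no match to any motif searched. The LRH-1 element CAAGGNCA was in 0 of the 12 member windows and in 5.53% of all windows, and the C/EBP core TTGCNNAA was in 0 of 12 and 9.56%. The HNF4 element CAAAGNCC was in 1 of 12 (Foxa1, 11 bases before the start, largely past the bases shown) and 5.15%. Both strands were searched for each motif, and a match or its absence describes these letters only.

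The factors differed widely in level. On the scale of CPM per kilobase of exon, Hnf4a had the highest level in each of the 4 groups, with 127 ± 6.58 (SD, n = 3) in SD controls, and Foxa2 had the lowest, with 3.66 ± 2.12. Between them in SD controls lay Prox1 at 41.7 ± 14.6, Cebpa at 40.7 ± 16.1, Cebpb at 20.2 ± 3.27, Foxa3 at 11.4 ± 0.17, Onecut1 at 10.1 ± 11.2 and Foxa1 at 6.74 ± 1.08. Neighbours in that order overlapped between Prox1 and Cebpa and from Foxa3 down through Onecut1, Foxa1 and Foxa2. Hnf4a, Cebpa and Cebpb did not overlap with the gene next below them. Foxa1, in the seventh place in both control groups, was in the sixth in SD knockouts at 11.4 ± 1.76, where Cebpb had moved from the fourth place in SD controls to the seventh, at 10.7 ± 2.29, and these values overlapped. Exon lengths were taken from an annotation of GRCm38, whereas the counts were made on mm9, so levels between genes are approximate.

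**Figure D1:**
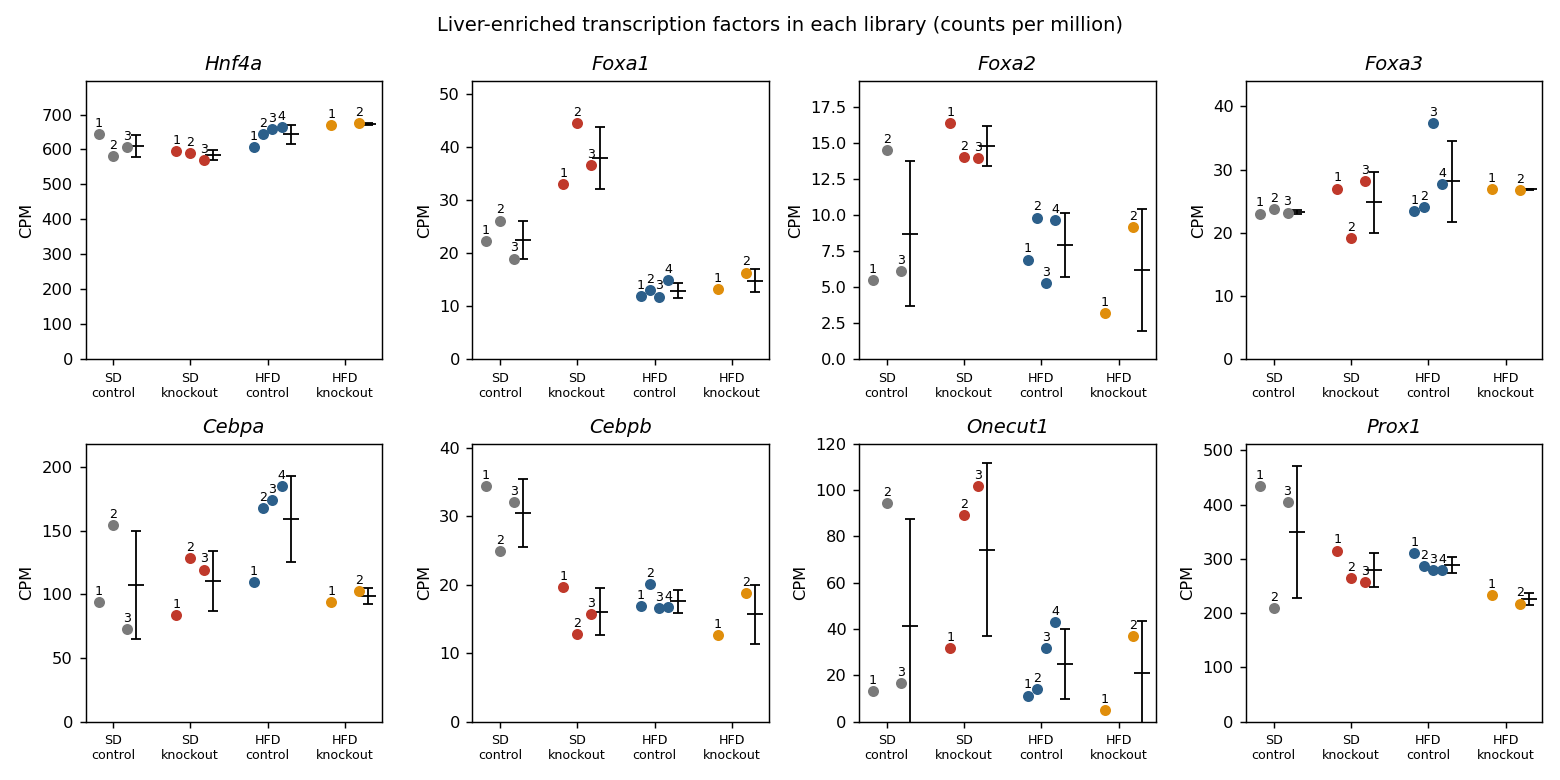
Counts scaled to library size (CPM, vertical axes) of each factor in every library, with libraries numbered within the 4 groups on the horizontal axis and bars for mean ± SD, cut at 0 where they would pass below it. Foxa1 is higher and Cebpb lower in all 3 SD knockouts than in any SD control, Hnf4a varies little, and Onecut1 differs several-fold within groups.

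With Nr5a2 knockout on SD, Foxa1 rose and Cebpb fell, and the other 6 factors did not pass the test. By edgeR's quasi-likelihood test at an adjusted p under 0.05, 1 of 8 members was higher, beside 1.44% of all genes tested, and 1 was lower, beside 2.94% (4.38% in either direction). The libraries of the 2 SD groups did not overlap for the same 2 members, beside 22.6% of all genes. The members' median log2 fold change was 0.07, against 0 over all genes tested.

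Foxa1 stood at 22.3, 26.1 and 18.9 CPM in SD controls, against 33.0, 44.4 and 36.6 CPM in the SD knockouts. All 3 knockouts lay above all 3 controls, and SD knockout 2 was the highest. The fold change was 1.70 (log2 fold change 0.76, SE 0.17, 95% interval 0.40 to 1.13, adjusted p = 0.0191). Leaving out SD control 3 (adjusted p = 0.110), SD knockout 2 (0.104) or SD knockout 3 (0.0613) took the value past the threshold, with log2 fold changes of 0.65, 0.64 and 0.79.

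Cebpb stood at 34.4, 24.9 and 32.0 CPM in SD controls, against 19.7, 12.8 and 15.7 CPM in the SD knockouts. Each knockout lay below each control, and SD control 2 was the control nearest to them. The level was 1.89-fold lower (log2 fold change -0.92, SE 0.20, 95% interval -1.35 to -0.48, adjusted p = 0.0175). The call was lost without SD control 1 (adjusted p = 0.0569), SD control 3 (0.0802), SD knockout 2 (0.0900) or SD knockout 3 (0.0773), while the log2 fold change stayed between -1.09 and -0.79. Cebpb shares 312 exon bases with Tmem189 on the opposite strand in the GRCm38 annotation, and no source states whether the counting used strand, so its counts are uncertain to that extent. Tmem189 was counted at 1.61 to 6.99 CPM over the 12 libraries.

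The summed levels of some marker lists of other liver cell types also differed between the SD groups. The summed level of 10 stellate cell and fibroblast markers was 353 to 416 CPM in SD controls and 467 to 550 CPM in SD knockouts, with none of the 10 at 0 and none called in that comparison. The summed level of 9 cholangiocyte markers was 64.7 to 68.3 CPM and 82.3 to 223 CPM, with Ggt1 at 0 in the controls. The 6 lymphatic endothelial markers summed to 131 to 167 and 183 to 220 CPM, with Pdpn and Ccl21a at 0 in both groups. Reln was counted in both the lymphatic and the stellate list. Only 4 cholangiocyte and 4 lymphatic markers were high enough to be tested, and 0 of these passed on SD by edgeR. The hepatocyte, Kupffer cell, endothelial and leukocyte sums overlapped between the SD groups. On HFD the stellate, cholangiocyte and lymphatic sums of controls and knockouts overlapped. The hepatocyte sum did not, at 126580 to 134240 CPM in HFD controls and 144602 to 189565 CPM in HFD knockouts. Of its 10 markers 1 was higher and 0 lower there by edgeR, beside 1.04% and 1.66% of all genes. Their median log2 fold change was -0.21, against -0.01 over all genes. Averaged over the diets 3 stellate, 1 cholangiocyte and 1 lymphatic marker passed as higher by edgeR, beside 3.00% of all genes. The lymphatic marker was Reln, which was also 1 of the 3 stellate markers. The part of these other cells in the Foxa1 and Cebpb values was not tested, and in whole liver fewer cells of a type and less RNA per cell cannot be told apart.

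On HFD no factor passed the test for knockout. The count was 0 of 8 by edgeR, beside 2.70% of all genes called by edgeR (1.04% higher and 1.66% lower). By DESeq2 it was 0 of 8, where 435 genes were called in all. An unadjusted p under 0.05 by edgeR was reached by 1 of 8, Cebpa. That gene ranked 920 among the 12015 genes tested, so many other genes also reached that level. The share of all genes at the unadjusted threshold was not counted. The members' median log2 fold change was -0.18, against -0.01 over all genes tested. Foxa1 stood at 11.9, 13.0, 11.8 and 14.9 CPM in HFD controls, against 13.2 and 16.3 CPM in the HFD knockouts, which overlapped (log2 fold change 0.20, 95% interval -0.16 to 0.56, adjusted p = 0.675). Cebpb stood at 16.9, 20.1, 16.6 and 16.8 CPM and at 12.6 and 18.7 CPM, with the knockouts on both sides of most controls (log2 fold change -0.15, 95% interval -0.56 to 0.25, adjusted p = 0.800).

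The difference of the knockout effect between the diets was tested directly. None of the 8 members and 0% of all genes passed by edgeR at the adjusted threshold. An unadjusted p under 0.05 was reached by 2 members, Cebpb and Foxa1. They ranked 308 and 681 by p among the 12015 genes tested, so many other genes also reached that level. For Cebpb the log2 difference of the effects, HFD minus SD, was 0.76 (SE 0.28, adjusted p = 0.561), and for Foxa1 it was -0.56 (SE 0.24, adjusted p = 0.616). A different knockout effect on the 2 diets was therefore not shown for either gene. Averaged over both diets, Foxa1 rose (log2 fold change 0.48, SE 0.12, adjusted p = 0.0216) and Cebpb fell (-0.54, SE 0.14, adjusted p = 0.0258), so 1 of 8 members was higher, beside 3.00% of all genes, and 1 lower, beside 5.36% (8.36% in either direction). With all libraries thinned to the smallest total in a single random draw, these averages were 0.31 (adjusted p = 0.269) and -0.53 (adjusted p = 0.0562). How far such values vary between draws was not tested. Without any 1 of SD control 3, SD knockout 2 and HFD knockout 2 the Foxa1 average did not pass (adjusted p up to 0.107). The same held for the Cebpb average without any 1 of SD control 1, SD control 3, SD knockout 2, SD knockout 3 and HFD knockout 1 (adjusted p up to 0.130).

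**Figure D2:**
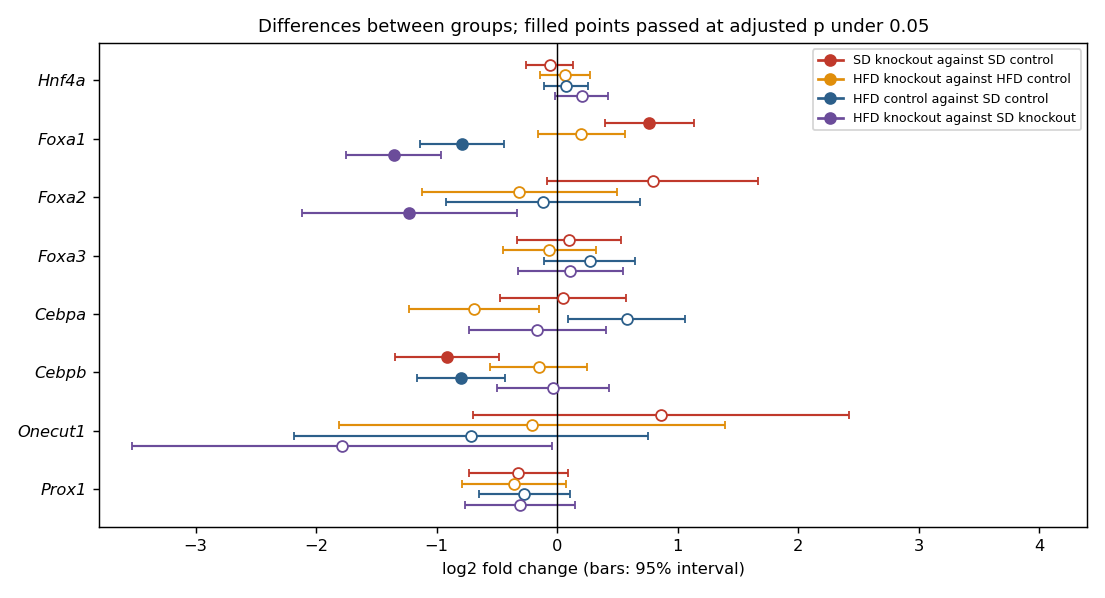
Log2 fold change of each factor (horizontal axis, bars for the 95% interval) in the knockout comparison on each diet and the diet comparison in each genotype, with filled points for those past an adjusted p of 0.05. The SD knockout points of Foxa1 (0.76) and Cebpb (-0.92) are filled, no HFD knockout point is, and the Onecut1 intervals are the widest.

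Hnf4a kept nearly the same level with knockout on either diet. It stood at 644, 581 and 607 CPM in SD controls, at 595, 590 and 568 in SD knockouts, at 606, 643, 659 and 663 in HFD controls and at 671 and 674 in HFD knockouts. The SD groups overlapped, and the HFD knockouts lay just above the highest HFD control. The log2 fold change with knockout was -0.06 on SD (SE 0.09, 95% interval -0.26 to 0.13, adjusted p = 0.799) and 0.07 on HFD (SE 0.10, 95% interval -0.14 to 0.27, adjusted p = 0.843). The standard deviation of its log2 CPM between libraries of a group was 0.06, lower than in all but 1.08% of the 1202 genes of most similar level. Over all genes tested the median of this spread was 0.26. Between the diets the log2 fold change of Hnf4a was 0.07 in controls (SE 0.09, adjusted p = 0.563, edgeR). In knockouts it was 0.20 (SE 0.10, 95% interval -0.015 to 0.42, adjusted p = 0.161, edgeR), and there the diets did not overlap.

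Hnf4aos, an antisense transcript whose span overlaps Hnf4a without shared exon bases in the GRCm38 annotation, was low. It was counted at 5.86, 8.84 and 9.46 CPM in SD controls and at 4.33, 2.00 and 1.04 CPM in SD knockouts. In HFD controls it was at 2.63, 8.07, 7.44 and 8.19 CPM and in HFD knockouts at 2.22 and 4.02 CPM. The SD knockouts lay below the SD controls, and on HFD the groups overlapped through HFD control 1. Averaged over the diets Hnf4aos fell (log2 fold change -1.36, adjusted p = 0.0264 by edgeR), a call lost without SD control 2, SD control 3, SD knockout 2, SD knockout 3 or HFD knockout 1 (adjusted p up to 0.0999).

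Among the other forkhead members, Foxa2 was at 5.47, 14.5 and 6.10 CPM in SD controls and at 16.3, 14.0 and 13.9 CPM in SD knockouts. SD control 2 lay within the knockout range and the other controls below it (log2 fold change 0.79, SE 0.41, 95% interval -0.08 to 1.67, adjusted p = 0.344). In HFD controls Foxa2 was at 6.90, 9.81, 5.27 and 9.62 CPM and in HFD knockouts at 3.20 and 9.15 CPM (log2 fold change -0.32, adjusted p = 0.797). Foxa3, the forkhead gene switched on last in the embryonic endoderm, was at 23.04 to 23.7 CPM in SD controls and at 19.2 to 28.2 in SD knockouts. Its HFD values were 23.4 to 37.3 CPM in controls and 26.8 and 27.0 in knockouts, so both pairs of groups overlapped (log2 fold changes 0.10 and -0.06, adjusted p = 0.871 and 0.928).

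Cebpa was at 94.1, 155 and 72.9 CPM in SD controls and at 83.7, 128 and 119 CPM in SD knockouts, and these overlapped (log2 fold change 0.05, 95% interval -0.48 to 0.57, adjusted p = 0.962). In HFD controls it was at 109.8, 168, 174 and 185 CPM and in HFD knockouts at 94.1 and 103 CPM. Both HFD knockouts lay below every HFD control, but the difference did not pass the test over all genes (log2 fold change -0.69, SE 0.25, 95% interval -1.23 to -0.15, adjusted p = 0.203). HFD control 1 was the lowest of its group, and without it the log2 fold change was -0.83 (adjusted p = 0.0565). Without the filter on low counts the adjusted p was 0.0406. Cebpa, Hnf4a and Prox1 were the 3 members whose HFD groups did not overlap, beside 22.2% of all genes.

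Prox1 was at 434, 209 and 405 CPM in SD controls and at 315, 265 and 257 CPM in SD knockouts. SD control 2 was the lowest of the 6 libraries and the other 2 controls were the highest (log2 fold change -0.33, SE 0.19, 95% interval -0.74 to 0.09, adjusted p = 0.424). Without SD control 2 the value was -0.59 and passed (adjusted p = 0.0156). In HFD controls Prox1 was at 279 to 311 CPM and in HFD knockouts at 233 and 218 CPM, below every control (log2 fold change -0.36, SE 0.20, 95% interval -0.79 to 0.07, adjusted p = 0.476). The average over both diets was -0.34 (SE 0.14, adjusted p = 0.162), and without SD control 2 it was -0.47 (adjusted p = 0.00317).

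Onecut1 varied more between libraries of one group than nearly any gene of its level. It was at 13.3, 94.4 and 16.8 CPM in SD controls and at 31.7, 89.3 and 101.7 CPM in SD knockouts. In HFD controls it was at 11.3, 14.0, 31.7 and 43.0 CPM and in HFD knockouts at 5.00 and 37.0 CPM. The highest library was 7.11 times the lowest in SD controls and 7.41 times the lowest in HFD knockouts. The standard deviation of log2 CPM within groups was 1.27, above that of 99.8% of 1202 genes of similar level. The knockout values were accordingly wide, with log2 fold changes of 0.86 on SD (SE 0.73, 95% interval -0.70 to 2.43, adjusted p = 0.613) and -0.21 on HFD (SE 0.75, 95% interval -1.81 to 1.39, adjusted p = 0.947).

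**Figure D3:**
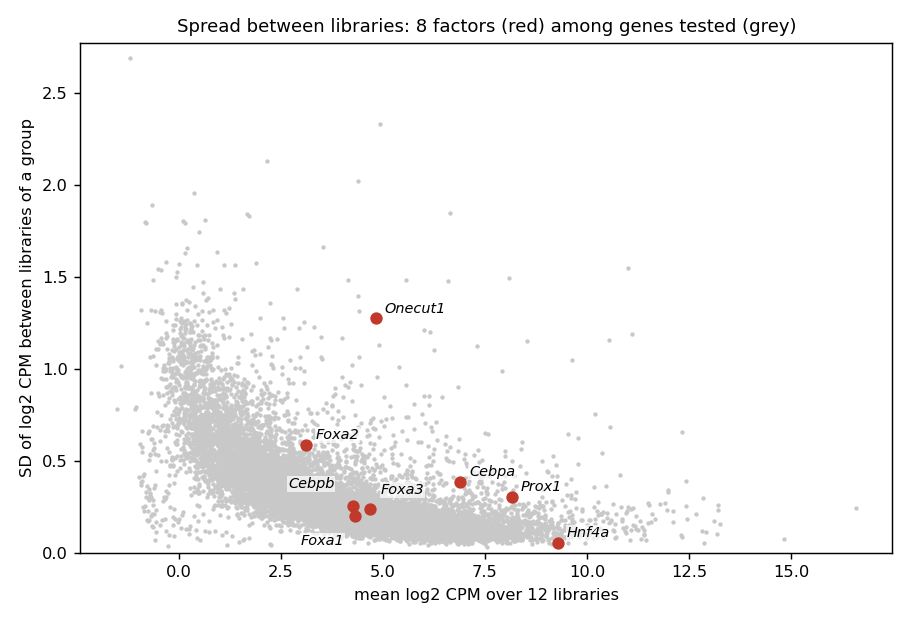
Standard deviation of log2 CPM between libraries of a group (vertical axis) against mean log2 CPM over 12 libraries (horizontal axis), with the 8 factors in red and all genes tested in grey. Onecut1 (1.27) lies at the top of the genes of its level and Hnf4a (0.06) at the bottom.

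The spread of several factors was shared between libraries. Cebpa deviated from its group mean in the opposite direction to Prox1 in 12 of 12 libraries, and Onecut1 deviated with Cebpa in 11 of 12 and against Prox1 in 11 of 12, HFD control 2 being the exception both times. SD control 2 held the largest such pattern, with Onecut1 1.76 above its group mean on the log2 scale, Foxa2 0.87 above, Cebpa 0.60 above and Prox1 0.67 below it (deviation -0.67). Onecut1, Cebpa and Foxa1 were all below their group means in SD control 3, SD knockout 1, HFD control 1 and HFD knockout 1. Hnf4a deviated by no more than 0.08 in any library. These pairs were picked from 28 after the values were seen, deviations within a group sum to 0, and the 2 HFD knockouts mirror each other, so the counts are a description with no test.

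**Figure D4:**
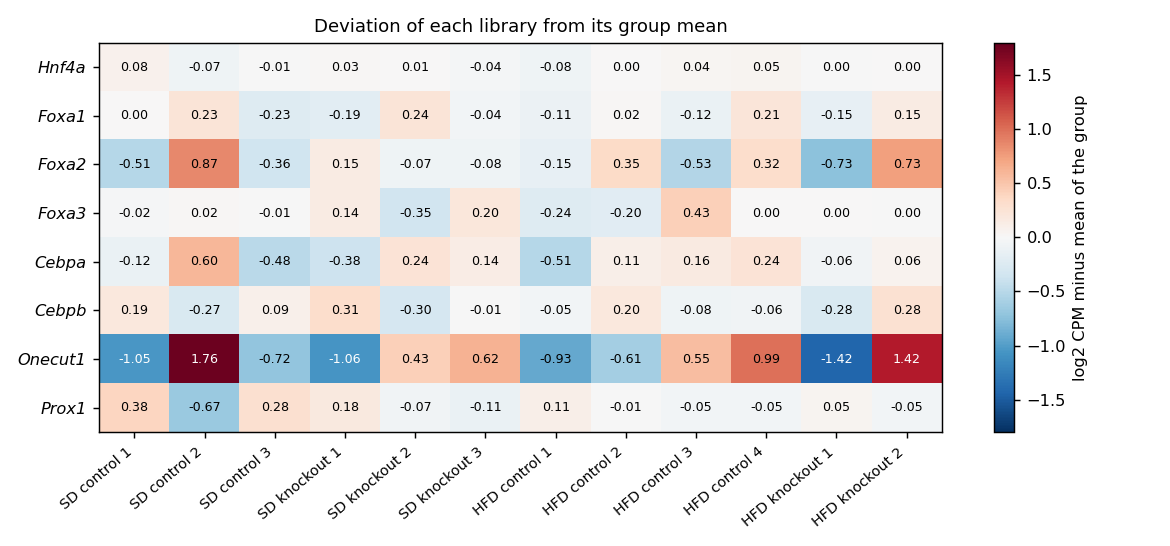
Deviation of each library from its group mean in log2 CPM (colour and printed value) for the 8 factors in 12 libraries. Onecut1 and Cebpa share their sign in 11 of 12 columns, and Prox1 has the opposite sign to Cebpa in 12 of 12.

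The genes whose pattern over the 12 libraries was closest to each factor were found by the root mean square difference of log2 CPM, each gene centred on its own mean, among 7604 genes. Patterns compared in this way include the difference between the diets. For Hnf4a these were Sf3b1 (0.06), Acbd5 and Ddb1 (0.07 each), which like Hnf4a hardly varied. For Foxa1 they were Tatdn1 (0.21), Klf9 (0.23) and Lum (0.24), and for Cebpb they were Klf15 (0.18), Cyb5 (0.21) and Timd2 (0.22). Foxa2 was closest to Arid5b (0.34), Zyg11a (0.39) and Zfp809 (0.40). Onecut1 was closest to Bhlhe41 (0.65), Zyg11a (0.69) and Gbp11 (0.71) against a root mean square deviation of its own of 1.30. Gbp11 was at 9.37, 70.3 and 14.6 CPM in SD controls, high in the same library as Onecut1. Prox1 was closest to Zkscan1 (0.17), Ppp2r5e (0.17) and Rc3h1 (0.18), Cebpa to Cdipt (0.24), Tuba1c (0.25) and Fig4 (0.25), and Foxa3 to Mier1 (0.13), Snapin and Cyc1 (0.15 each). The root mean square deviations of the other members themselves were 0.08 for Hnf4a, 0.64 for Foxa1, 0.68 for Foxa2 and 0.22 for Foxa3. They were 0.42 for Cebpa, 0.43 for Cebpb and 0.31 for Prox1.

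Between the diets, Foxa1 was lower on HFD in both genotypes. In controls it went from 22.4 ± 3.60 CPM (SD, n = 3) to 12.9 ± 1.47 CPM (n = 4), a log2 fold change of -0.79 (SE 0.16, adjusted p = 0.0017, edgeR). In knockouts it went from 38.0 ± 5.85 CPM (n = 3) to 14.7 ± 2.19 CPM (n = 2), a log2 fold change of -1.36 (SE 0.18, adjusted p = 6e-05, edgeR), and neither pair of groups overlapped. With all libraries thinned to 1 depth, in the same single draw, the control value was -0.42 (adjusted p = 0.128). Cebpb fell in controls, from 30.4 ± 4.92 to 17.6 ± 1.69 CPM (-0.80 on the log2 scale, SE 0.17, adjusted p = 0.00242), and stood at 16.0 ± 3.44 and 15.7 ± 4.32 CPM in the knockouts (-0.03, adjusted p = 0.933). Foxa2 fell in the knockouts, from 14.8 ± 1.36 to 6.17 ± 4.21 CPM (-1.23 on the log2 scale, SE 0.42, adjusted p = 0.0409). That call was lost without SD knockout 1 (adjusted p = 0.112), SD knockout 2 (0.0725), SD knockout 3 (0.0734) or HFD knockout 1 (0.294), and without the last of these the value was -0.68.

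In controls 0 of 8 members were higher and 2 lower on HFD, beside 16.5% of all genes higher, 13.6% lower and 30.1% in either direction, and the same 2 did not overlap between the diets, beside 37.2% of all genes. In knockouts 0 were higher and 2 lower, beside 14.9% of all genes higher, 11.7% lower and 26.6% in either direction. There 4 members (Hnf4a, Foxa1, Foxa2 and Prox1) did not overlap between the diets, beside 52.7% of all genes. Counted in either direction, the share of members called in each genotype was near that of all genes, and all of those called were lower. Cebpa was 1.49-fold higher on HFD in controls without passing (log2 fold change 0.58, 95% interval 0.09 to 1.06, adjusted p = 0.0679), and it passed without SD control 2 (0.94, adjusted p = 0.0047) or without HFD control 1 (0.72, adjusted p = 0.0191). Prox1, at -0.27 (adjusted p = 0.271), passed without SD control 2 (-0.53, adjusted p = 0.00292). Onecut1 differed between the diets by -1.78 in knockouts (SE 0.82, adjusted p = 0.123), and without HFD knockout 2 by -3.87 (adjusted p = 0.0296). Diet, depth and any sequencing cohort cannot be told apart in these values. The ribosomal RNA gene Rn45s held 0.291% to 0.460% of the counts of SD libraries and 0.985% to 1.32% of those of HFD libraries.

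Gm16551, a transcript beside Onecut1 on the same strand, went from 8.85 to 18.5 CPM in SD controls to 1.72 to 9.10 CPM in HFD controls, and from 13.3 to 25.8 CPM in SD knockouts to 1.11 and 1.34 CPM in HFD knockouts. It fell with HFD in controls (log2 fold change -1.37, adjusted p = 0.021 by edgeR) and in knockouts (-3.90, adjusted p = 0.000185). It does not overlap with Onecut1 in the GRCm38 annotation. Another transcript there, Gm20649, lies on the same strand and shares 2171 of the 4113 exon bases of Onecut1. It is not listed in the count tables, so its reads cannot be told apart from those of Onecut1. Overlaps with unlisted transcripts on the opposite strand were 133 bases for Prox1 (Prox1os) and 51 for Cebpa (Gm45091).

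Other transcription factors of the hepatocyte were counted from a list of 31, of which 30 were tested. On SD 0 were higher and 6 lower in knockouts, beside 1.44% and 2.94% of all genes. On HFD 0 were higher and 2 lower, beside 1.04% and 1.66%, and averaged over both diets 1 was higher and 5 were lower, beside 3.00% and 5.36%. Nr0b2 was among the genes that fell. Tbx3, a T-box repressor needed for the growth of the embryonic liver, was at 36.6 to 65.0 CPM in SD controls and at 12.3 to 18.1 in SD knockouts (log2 fold change -1.68, SE 0.20, adjusted p = 0.000329). On HFD it was at 29.8 to 35.7 CPM in controls and at 12.2 and 13.3 in knockouts (-1.40, SE 0.20, adjusted p = 0.00126). Klf15, a glucocorticoid-induced regulator of amino acid breakdown, and Nr1h4, the bile acid receptor FXR, fell on average over the diets (log2 fold changes -0.57 and -0.49, adjusted p = 0.00184 and 0.00317). The list's median log2 fold change was -0.18 on SD and -0.05 on HFD, beside 0 and -0.01 over all genes.

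Of 10 relatives and partners of the C/EBP proteins, 0 were higher and 1 lower on SD (1.44% and 2.94% of all genes), and 0 were higher and 2 lower on HFD (1.04% and 1.66% of all genes). Atf5, a leucine zipper factor of the stress response that is high in liver, was at 20.3, 33.8 and 23.8 CPM in SD controls and at 8.67, 11.2 and 9.06 CPM in SD knockouts. In HFD controls it was at 24.8 to 50.0 CPM and in HFD knockouts at 10.8 and 5.13 CPM, so that each knockout lay below each control on its diet. It fell on HFD (log2 fold change -2.40, SE 0.32, adjusted p = 0.000803) and on average over the diets (-1.91, SE 0.23, adjusted p = 9.1e-05). The SD call (-1.43, SE 0.34, adjusted p = 0.0267) was lost without SD control 2, SD control 3 or any SD knockout, with adjusted p up to 0.108. Cebpd, another C/EBP gene that inflammation induces, averaged -1.14 over the diets (SE 0.22, adjusted p = 0.00371), and -1.04 with adjusted p = 0.0885 at thinned depth.

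Known target genes of the factors were counted against the same shares of all genes, which were 1.44% higher and 2.94% lower on SD and 1.04% higher and 1.66% lower on HFD. Of 18 HNF4A targets, 0 were higher and 3 lower on SD and 1 was higher and 2 lower on HFD, although Hnf4a itself did not pass in either. Averaged over the diets 0 of these targets were higher and 5 lower, beside 3.00% and 5.36% of all genes. Apoa2, a protein of high-density lipoprotein, fell on SD from 4465 ± 469 to 2388 ± 334 CPM (-0.90 on the log2 scale, SE 0.15, adjusted p = 0.00223, edgeR). Cyp8b1 was another of those lower on SD.

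Of 11 FOXA targets tested, 0 were higher and 2 lower on SD, beside 1.44% and 2.94% of all genes. On HFD 1 was higher and 3 lower, beside 1.04% and 1.66%. Averaged over the diets 0 were higher and 4 lower, beside 3.00% and 5.36%. Abcc2, the canalicular exporter of bilirubin conjugates, fell on SD from 1259 ± 136 to 751 ± 57.8 CPM (-0.74 on the log2 scale, SE 0.12, adjusted p = 0.00244, edgeR), while Foxa1 rose there. Pck1, a gluconeogenic enzyme listed for FOXA, C/EBP and HNF6 alike, and Apom, an apolipoprotein that carries sphingosine phosphate, fell on average over the diets (log2 fold changes -0.70 and -1.05, adjusted p = 0.00497 and 0.00323). Ttr, the transthyretin gene, was at 6263 to 7731 CPM in HFD controls and at 11559 and 10064 CPM in HFD knockouts (log2 fold change 0.64, SE 0.13, adjusted p = 0.0116), a call lost without HFD knockout 1 (adjusted p = 0.175).

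Of 14 C/EBP targets, 0 were higher and 1 lower on SD, the same counts held on HFD, and averaged over the diets 0 were higher and 3 lower, beside 3.00% and 5.36% of all genes. Tdo2, the tryptophan-degrading enzyme, fell on average over the diets (log2 fold change -0.67, SE 0.13, adjusted p = 0.00397). Of 10 HNF6 targets, 0 were higher and 1 lower on SD, beside 1.44% and 2.94% of all genes. On HFD 1 was higher and 1 lower, beside 1.04% and 1.66%. Averaged over the diets 1 was higher and 2 lower, beside 3.00% and 5.36%. The gene counted as higher on HFD was Ttr in the HNF4A, FOXA and HNF6 lists alike. Of 8 Prox1 partners, LRH-1 among them, 0 passed on either diet by edgeR. Averaged over the diets 0 of them were higher and 2 lower, beside 3.00% and 5.36% of all genes. The median log2 fold changes on SD were -0.15 for HNF4A targets, -0.37 for FOXA targets, -0.27 for C/EBP targets, -0.09 for HNF6 targets and 0.05 for Prox1 partners, beside 0 over all genes. On HFD they were -0.19, -0.33, -0.56, -0.13 and -0.10 in the same order, beside -0.01 over all genes. Of 7 genes of the fetal liver only 2 were high enough to be tested, and 0 of them passed in any of the 6 comparisons by edgeR.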

How the data were processed

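Mouse liver RNA was sequenced in 12 samples, 1 library each. The submitters' processing notes name build mm9, HTSeq, DESeq2 1.14.1 and TopHat2 2.1.0; whether strand was used is not stated. The values deposited by the authors are raw counts, whole numbers listed by gene symbol. Samples were grouped by title. Counts were tested in R 4.3.3 with edgeR 4.0.16 (limma 3.58.1) by the quasi-likelihood test, with TMM normalization, filterByExpr (minimum count 10), 4 group means and 1 spread over 12 libraries. The common biological coefficient of variation was 0.153. Two-sided p-values were adjusted by Benjamini-Hochberg over 12015 genes, with a threshold of 0.05. SE and 95% intervals come from the test statistic. The procedure was tested on simulated data.

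The members and gene lists were chosen with earlier results of these data known. Named genes were all members, up to 4 per list that passed by smallest p, Nr5a2, and 3 per member of closest pattern (mean log2 CPM of at least 3, prior count 1); which list genes are described was decided after their stability was seen. Hnf4aos, Gm16551 and Tmem189 were named for their position. Lists were described by counts and medians with no set test. Promoters come from RefSeq (GRCm38.p6) and exons from the GENCODE annotation of GRCm38. Alternatives were DESeq2 1.42.0, RLE, total counts alone, no filter, only the groups compared, thinning to the smallest library, a replicate block, longest transcripts for levels and each library left out. Thinning was a single random draw of the counts.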

Additional observations from a re-analysis of the deposited data

Results flagged for a closer look

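In 4 of 71 genes checked among the 4 HFD controls, 1 library lay apart from the other 3, where chance flags about 1 in 20 groups. Cebpb stood at 20.1 CPM in HFD control 2 against 16.6 to 16.9 in the others. The other 3 genes were set apart by HFD control 1. There Nr1h4 stood at 195 CPM against 249 to 257, Hnf4aos at 2.63 against 7.44 to 8.19, and Tuba1c, one of the genes closest to Cebpa in pattern, at 8.62 against 14.2 to 14.5. In these 3 genes HFD control 1 was nearer to the HFD knockouts than the other controls were. They were picked because that library lay apart, and the count of flagged genes was near the chance rate. A likeness of that library to the knockouts was not tested.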

How the results depend on the processing

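Apart from library removals, 306 of 320 values of members kept their direction and their side of the threshold. The cause of the changes was not tested. The direction turned for Hnf4a with knockout on SD by total counts alone (0.029) and averaged over diets with no filter (-0.0070), for Foxa1 with knockout on HFD after thinning (-0.19), for Foxa3 with knockout on HFD with the replicate block (0.074) and for Cebpb between diets in knockouts with no filter (0.0057) and after thinning (0.054). The number of members called became 1 with knockout on HFD with no filter, 0 (thinned) and 1 (replicate block) averaged over diets, and 1 between diets in controls when thinned. Leaving out 1 library gave 0 to 3 members called with knockout on SD, 0 to 0 on HFD, 0 to 3 averaged over diets, 0 to 0 for the difference between diets, 2 to 4 between diets in controls and 1 to 3 in knockouts; leaving out an HFD knockout leaves 1, assumed to vary like the other groups. Directions that turned in such removals were of log2 fold changes that had not passed. With knockout on SD the ranges were -0.0055 to 0.24 for Foxa3 and -0.17 to 0.40 for Cebpa. With knockout on HFD they were -1.29 to 0.23 for Foxa2, -0.14 to 0.11 for Foxa3, -0.47 to 0.10 for Cebpb, -2.30 to 0.59 for Onecut1 and -0.030 to 0.26 for Nr5a2. Averaged over diets they were -0.011 to 0.028 for Hnf4a, -0.25 to 0.52 for Foxa2, -0.036 to 0.11 for Foxa3 and -0.72 to 1.04 for Onecut1. For the difference between diets they were -0.31 to 0.015 for Foxa3, -0.21 to 0.24 for Prox1 and -0.27 to 0.021 for Nr5a2. Between diets in controls they were -0.33 to 0.44 for Foxa2 and -1.12 to 0.72 for Onecut1, and in knockouts -0.039 to 0.21 for Foxa3 and -0.35 to 0.23 for Cebpb. Onecut1 between diets in knockouts passed with no filter (adjusted p = 0.0233), and Cebpa between diets in controls did so too (0.0099). All genes called with knockout on HFD (325) became 518 with no filter and 127 with only the groups compared; for the difference between diets, 0 became 17 by DESeq2, 17 with no filter and 1 with the block. Over library removals all genes called numbered 220 to 498 with knockout on SD and 85 to 602 on HFD. Whether replicate numbers pair the libraries is not stated. Correlations of deviations between genotypes of a diet were -0.0072 to 0.115, which cannot settle it. With the replicate block Cebpb averaged over diets had an adjusted p of 0.0509 and Onecut1 between diets in knockouts one of 0.0206. Fitting only the groups compared gives no separate value for the average and the difference. With lengths of the longest transcripts, 14 of 28 neighbours in level did not overlap, against 15 with merged exons.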
